A study of Mus musculus with 4 samples.

Results

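The genes described here encode 8 parts of the vesicle trafficking machinery of the urothelium, the epithelium that lines the ureter and bladder. They are Rab27b, Rab11a, Rab8a, Mal, Snx31, Vps33a, Myo5b and Vamp8, picked by gene symbol for their known roles, with earlier results of these data known. On the arrays 18 probe sets carry one of these symbols alone, out of 45037 probe sets and 18193 named genes in all, and each of the 8 genes was measured. Where a gene has several probe sets, the one brightest on average gives its level, and the others are described beside it.

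The samples were 4 ureters of adult male FVB/N mice carrying SMGA/EGFP, a transgene in which green fluorescent protein reports smooth muscle gamma actin (Actg2). The ureter was cut out between kidney and bladder where the reporter glowed, at Theiler stage 28, and no treatment or second genotype was studied. Samples were not pooled, but the labels do not say that each came from another animal, so p-values measure only the spread between these samples. Because the whole tube was taken, a level is that of all its cells, and fewer cells of a type cannot be told apart from less RNA per cell. All 4 samples form 1 group, so the data answer whether the genes were expressed in adult ureter and how far the samples differed.

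In the outermost urothelial cells, called umbrella cells, uroplakin proteins are assembled into stiff membrane plaques and carried to the apical surface in discoid vesicles. Rab GTPases mark these vesicles and recruit motors and tethers, SNARE proteins drive fusion with the surface, and plaques taken back in are sorted to endosomes and lysosomes. The members cover these steps in order: the Rab proteins and their motor, the protein that lets vesicles join the apical membrane, the fusion SNARE, and the factors that sort and degrade internalised plaques.

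Values are log2(intensity + 16), called levels below, and differences between levels are log2 units. A level lies over background when it exceeds the array's own threshold, the 95th percentile of 87 probe sets for chemosensory receptors, which was 6.99 to 7.56. Differences in level between probe sets also reflect the probes, so levels are compared between samples for the same probe set and never between genes.

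Several libraries differed in ways that touch the results. For Gapdh the ratio of 3' to 5' signal, a sign of RNA quality, was 18.8 in replicate 4 and 31.6 to 36.9 in the others. Every sample had 2 rounds of RNA amplification, whose part in these ratios was not tested. All 6 of 6 skeletal muscle markers lay over the threshold of replicate 3 against 0 to 1 elsewhere, with a summed intensity of 148922 against 257 to 428. The summed intensity of replicate 3 was lowest for fibroblast markers, 21171 against 81010 to 116693, and for endothelial markers, 4075 against 16305 to 30287. Markers of other organs were uneven in the other libraries too. The liver sum was 51168, 397, 13006 and 478 over replicates 1 to 4, so high in the first and the third, and the seminal vesicle and prostate sum was 6462, 62211, 76080 and 656 in replicates 1 to 4. The fat sum was 31464 in replicate 3 against 186 to 367. The part of these tissues in the members' differences between samples was not tested. The smooth muscle sum was 29724, 93872, 63978 and 41885 in replicates 1 to 4, where all 8 markers lay over the threshold in every sample. The urothelial and epithelial sum ranged from 345577 in replicate 4 to 484350 in replicate 3, with 13 of 14 markers above background. The exception was Krt20, the keratin of umbrella cells, and it lay over the threshold in replicate 3 only.

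All 8 trafficking genes were expressed in the adult ureter. Each lay above background by limma's moderated test of the mean (one-sided, Benjamini-Hochberg adjusted over all probe sets), where 57.9% of named genes did. By sample, 8 of 8 lay over the threshold in every replicate, where 67.3%, 68.9%, 67.8% and 66.4% of named genes did in replicates 1 to 4. Of their 18 probe sets 15 were above background, against 40.9% of all probe sets. Without replicate 3 the count of genes was again 8.

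Mean levels stood 3.11 to 8.14 log2 units over the arrays' thresholds. The adjusted p of the level probe sets ranged from 1.25e-08 to 3.45e-05. These ranges describe the probe sets and do not order the genes by expression.

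**Figure D1:**
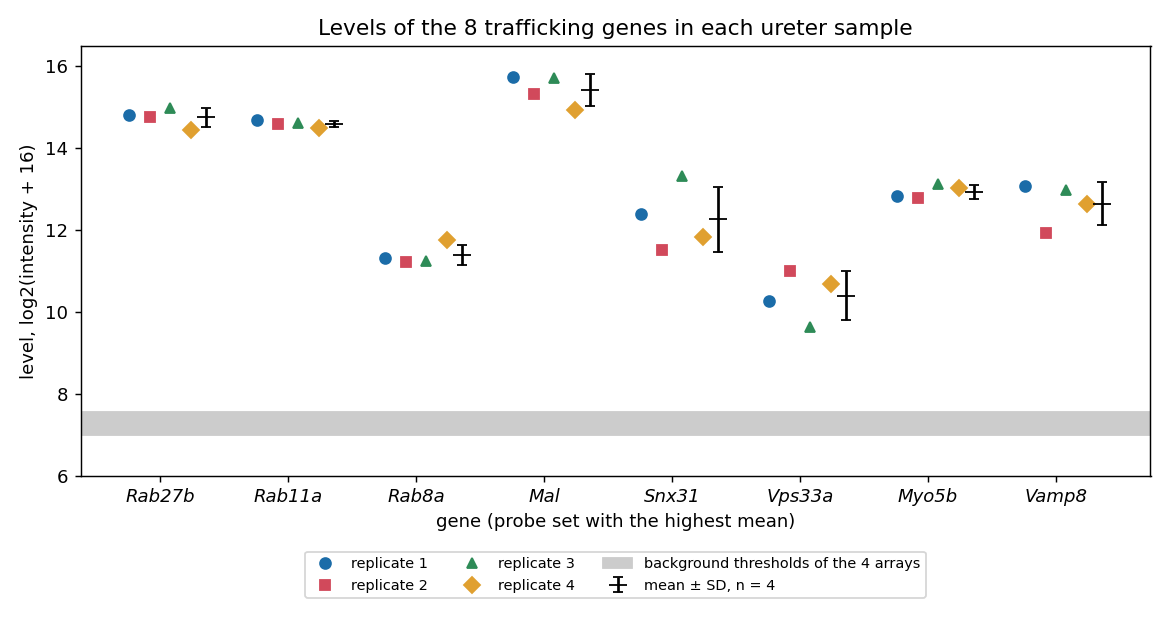
Level of each gene on the vertical axis, log2(intensity + 16), for 4 ureter samples shown as separate markers, with the mean and SD (n = 4) at the right of each gene and a grey band from 6.99 to 7.56 for the arrays' background thresholds. All points lie above the band, the 4 samples of Rab11a are within 0.20 of each other, and Snx31 spans 1.81.

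Rab27b encodes the Rab GTPase found on the discoid vesicles of umbrella cells, where it is thought to steer them to the apical surface. Its level was 14.82, 14.75, 14.99 and 14.45 in replicates 1 to 4, a mean of 14.75 ± 0.23 (SD, n = 4). Replicate 3 was highest and replicate 4 lowest, with intensities of 32624 and 22408, a 1.46-fold range. The next probe set, 1417214_at, gave 14.40, 14.47, 14.57 and 14.08, with the same samples at the top and bottom. The other pair of probe sets were dim. Probe set 1417215_at had 9.49 ± 0.50 (n = 4) and was highest in replicate 4 (9.87) and lowest in replicate 1 (8.77), so it ranked the samples in another order. Probe set 1443764_x_at, whose suffix marks probes that can match other transcripts, was not above background at 8.04 ± 0.71 (limma adjusted p = 0.0799) and lay over the threshold in 3 of 4 samples.

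Rab11a encodes the Rab GTPase of recycling endosomes, which acts with the motor myosin Vb. Its SD was the smallest of the 8 genes, with 14.69, 14.59, 14.61 and 14.49 in replicates 1 to 4 and a mean of 14.59 ± 0.08 (n = 4). It was also smallest under each of 9 alternatives that recomputed levels, but most of these kept the same probe set. With the mean over all probe sets of a gene the SD was 0.281, close to the 0.284 of Rab8a and the 0.300 of Myo5b. Among genes above background 1.11% had a smaller SD. The other Rab11a probe set, 1434549_at, varied more. It had 14.20, 14.56, 13.32 and 14.60, so replicate 3 lay 1.13 below the mean of the other samples. Intensities there were 10245 against 18757 to 24764. The probe sets of Rab11a thus disagree on replicate 3, and which of them follows the transcript was not tested.

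Rab8a encodes a Rab GTPase that works after Rab11a in carrying vesicles to the apical membrane. It had 11.32, 11.21, 11.26 and 11.75 in replicates 1 to 4, with a mean of 11.38 ± 0.25 (n = 4). Replicates 1 to 3 lay between 11.21 and 11.32, and replicate 4 stood 0.49 above their mean. The second probe set, 1440620_at, had 8.99 ± 0.54 (n = 4) and was lowest in replicate 2 (8.22) and highest in replicate 3 (9.48). The dimmest probe set, 1457624_at, was not above background and lay over the threshold in 0 of 4 samples.

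Myo5b encodes myosin Vb, the actin motor that moves Rab11a vesicles under the cell surface. Its level was 12.82, 12.78, 13.12 and 13.02 in replicates 1 to 4, a mean of 12.93 ± 0.16 (n = 4), and 7.11% of genes above background had a smaller SD. The range was 1.27-fold in intensity. Probe set 1437698_at placed replicate 4 lowest, at 9.91 against 10.57 to 11.03, where the brighter probe set placed it second highest. Probe set 1441104_at lay over the threshold in 0 of 4 samples.

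Mal encodes a small protein with several membrane spans that helps discoid vesicles become part of the apical membrane. Its level was 15.75, 15.32, 15.71 and 14.93 in replicates 1 to 4, with a mean of 15.43 ± 0.38 (n = 4). Replicates 1 and 3 were highest and replicate 4 was 0.66 below the mean of the others. The second probe set, 1432558_a_at, differed far more between samples. It had 12.29, 11.48, 14.41 and 11.30, so replicate 3 lay 2.72 above the mean of the other 3, with an intensity of 21781 against 2500 to 4982. Its suffix marks probes shared by alternative transcripts of 1 gene, and whether the transcripts of Mal differ between samples was not tested.

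Vamp8 encodes a vesicle SNARE, a protein of the fusion step, which is also used by exocrine and mast cells. Its level was 13.07, 11.92, 12.97 and 12.63 in replicates 1 to 4, with a mean of 12.65 ± 0.52 (n = 4), from its only probe set. Replicate 2 was lowest, 0.97 below the mean of the others and 0.93 below it without replicate 3. Intensities were 3870 in replicate 2 and 6313 to 8597 in the others, a 2.22-fold range. Replicate 2 was also the sample with the highest smooth muscle sum and the highest 3' to 5' ratio of Actb, 19.8 against 4.43 to 8.23, and their part in the low Vamp8 value was not tested.

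Snx31 encodes a sorting nexin that binds internalised uroplakins and sends them towards degradation. It varied most among the 8 level probe sets, with 12.40, 11.52, 13.33 and 11.82 in replicates 1 to 4 and a mean of 12.26 ± 0.80 (n = 4). Intensities ran from 2914 in replicate 2 to 10259 in replicate 3, a 3.52-fold range, with 5371 and 3602 in replicates 1 and 4. Replicate 3 lay 1.42 above the mean of the others and replicate 2 lay 1.00 below it. Without replicate 3 the mean was 11.91 and the SD 0.45, smaller than the 0.58 of Vamp8, and replicate 2 was 0.59 below the remaining samples. Among genes above background 86.6% had a smaller SD.

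Vps33a encodes a Sec1/Munc18 protein of the HOPS complex, which tethers late endosomes to lysosomes. Its level was 10.27, 11.004, 9.63 and 10.68 in replicates 1 to 4, with a mean of 10.40 ± 0.59 (n = 4). Replicate 3 was 1.02 below the mean of the others and replicate 2 was 0.81 above it, the reverse of the order seen for Snx31. The second probe set, 1453742_at, did not repeat this order. It had 8.33, 8.60, 9.18 and 9.81, with replicate 4 highest and replicate 1 lowest.

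**Figure D2:**
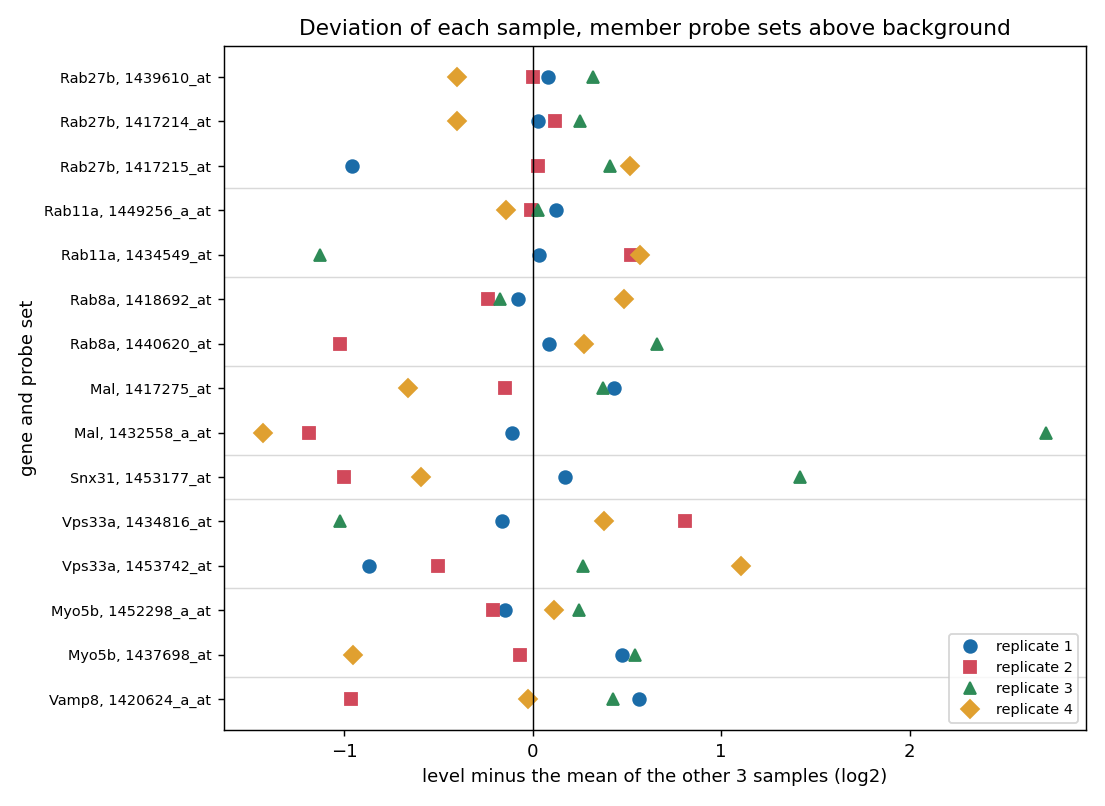
Deviation of each sample, its level minus the mean of the other 3 (log2, horizontal axis), for the 15 probe sets above background, grouped by gene with the probe set that gives the gene level first. Replicate 3 deviates most for Mal probe set 1432558_a_at (2.72) and Snx31 (1.42), and the Rab11a and Vps33a probe sets place it on different sides of 0.

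None of the 8 genes passed a test for spread beyond that of probe sets of like level. The test set the variance over 4 samples against limma's trended prior (F test, Benjamini-Hochberg adjusted over probe sets above background), and 0 member probe sets passed, as did 0 of all 18434 (0%). At an unadjusted p under 0.05 the count was 1, the Mal probe set 1432558_a_at, whose variance was 13.3 times the prior, against 4.64% of all probe sets above background. With limma's prior without trend the calls were also 0. The smallest adjusted p of any probe set in this F test was 0.292, so the members' count of 0 does not set them apart from other genes. Counts of 0 in a test on 4 samples do not show that levels were equal.

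The members' SDs are given as a description. Their median was 0.32 against 0.41 for genes above background, and 5 of 8 lay under the latter. Those genes were not matched to the members in level. Against the prior for probe sets of like level, the variance was 0.08 to 0.60 times as large for Rab11a, Myo5b, Rab8a and Rab27b. It was 1.35 to 4.03 times as large for Vps33a, Vamp8, Mal and Snx31. By level probe set, replicates 1 to 4 were highest for 3, 1, 3 and 1 genes and lowest for 0, 4, 1 and 3. The members' median deviation was 0.10, -0.18, 0.28 and -0.08 in replicates 1 to 4, where that of all genes above background was 0.03, 0.03, -0.05 and 0.05. After centring, the root mean square difference between members' profiles ranged from 0.15, for Rab27b and Rab11a, to 1.20, for Snx31 and Vps33a.

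The partners of the members were expressed as well. Of 120 measured genes in 10 further trafficking lists 115 were above background (95.8%, against 57.9% of named genes). In 6 lists every measured gene was above background. They held 20 Rab GTPases and regulators, 8 Rab27 effectors, 10 MAL and MARVEL proteins, 24 sorting nexins and 9 exocyst subunits. The list of HOPS and CORVET tethers, which includes Rab7 and Rab5a, held 11 genes. The 5 genes that were not, named after their values were seen, were Vps25 of the ESCRT machinery, the myosins Myo7a and Myo7b, Snap25, the SNARE of nerve endings, and Upk3a. Of the 115 genes 0 passed the spread test, as did 0 of all 18434 probe sets above background. Of the 115, 2 had an unadjusted p under 0.05, Sytl2 and Upk3b, where 4.64% of all probe sets above background did.

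**Figure D3:**
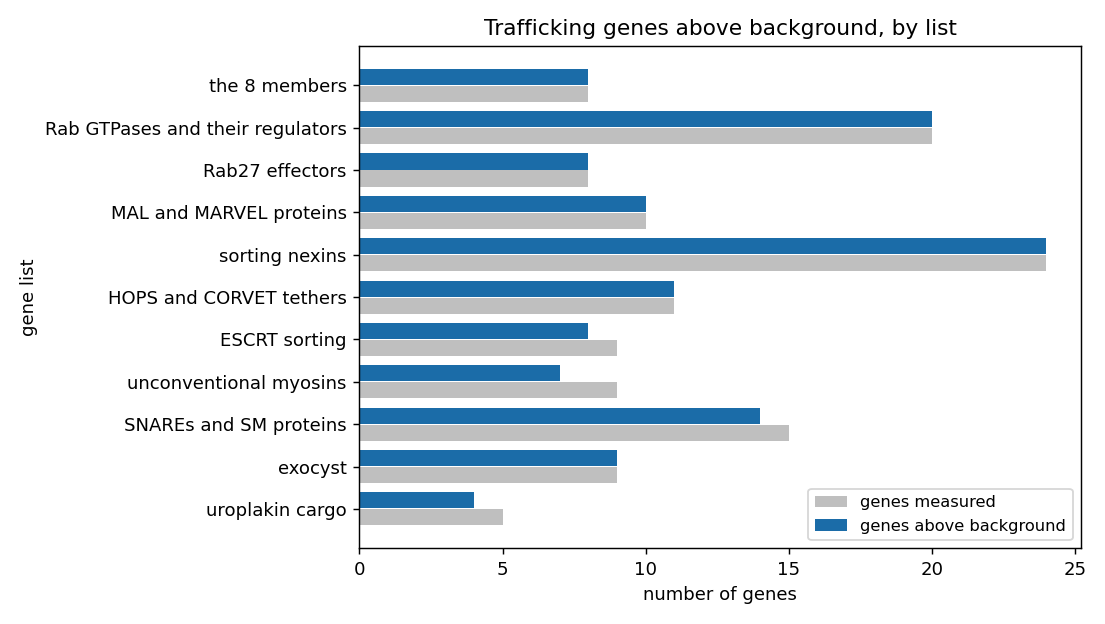
Number of genes measured (grey) and above background (blue) on the horizontal axis for the 8 members and 10 further lists. Blue and grey bars are equal for the members and 6 lists, and the largest shortfall is 2 genes, among 9 unconventional myosins.

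Close relatives of the Rab members were present. Rab11b had 11.94 ± 0.17, Rab27a had 12.02 ± 0.35, and Rab25, an epithelial relative of Rab11a, had 12.72 ± 0.61 (each n = 4). Rab25 was lowest in replicate 3, at 11.92 against 12.68 to 13.39. The Rab27 effectors named here, Sytl1, Sytl2 and Sytl4, link the GTPase to the plasma membrane. Sytl1 had 10.84 ± 0.23 and Sytl4 had 10.67 ± 0.38. Sytl2 had 13.70, 11.98, 14.16 and 12.55 in replicates 1 to 4, and so, like Snx31, was highest in replicate 3 and lowest in replicate 2.

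Among the relatives of Mal, Mal2, which acts in transport across epithelial cells, had 12.56 ± 0.42 (n = 4). Mall had 13.31, 12.58, 11.14 and 12.47 in replicates 1 to 4, and Plp2 had 14.29 ± 0.43. In replicate 3 each of these 3 genes was lowest, where the second Mal probe set was highest. Snx17 and Snx27, which share the FERM domain of Snx31, had 15.44 ± 0.19 and 10.68 ± 0.29, and Snx1, a retromer subunit, had 12.49 ± 0.32.

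In the list of tethers, Vps33b had 11.27 ± 0.11 and Vps18 had 8.29 ± 0.26 (each n = 4). Vps16, the HOPS subunit that binds Vps33a, had 11.40 ± 0.38 (n = 4). The ESCRT genes Hgs, Stam and Tsg101, which sort cargo into late endosomes, had 10.83 ± 0.40, 11.81 ± 0.36 and 12.60 ± 0.21.

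The myosins Myo5a, Myo5c and Myo6 had 11.20 ± 0.68, 11.04 ± 0.76 and 11.49 ± 0.30 (each n = 4). Myo5a and Myo5c were highest in replicate 3, at 12.12 and 11.96. The target SNARE Snap23, a partner of Vamp8, had 11.21 ± 0.32, and the vesicle SNAREs Vamp2 and Vamp3 had 9.56 ± 0.37 and 14.51 ± 0.43. The exocyst subunits Exoc1, Exoc2 and Exoc3, which tether vesicles at the plasma membrane, had 11.18 ± 0.41, 11.88 ± 0.30 and 12.39 ± 0.27.

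Of 5 uroplakins, the cargo of these vesicles, 4 were above background by the test of the mean, where 57.9% of named genes were. The exception, Upk3a, lay over the threshold in replicate 3 only, and some uroplakins differed widely between samples. Upk1a, Upk1b and Upk2 were above background, and Upk1a had 10.68, 9.33, 11.35 and 11.02 in replicates 1 to 4. Upk3b and Upk3a, singled out after their values were seen, were highest in replicate 3, at 14.34 against 10.44 to 11.73 and at 14.91 against 4.55 to 7.03. The median SD of the cargo genes above background was 0.73, against 0.32 for the 8 members, a description that was not tested. Upk2 had 9.86, 9.58, 10.33 and 10.30, with an SD of 0.36. Over these same samples the members' ranges, by level probe set, were 0.20 for Rab11a, 0.35 for Myo5b and 0.54 for Rab27b and for Rab8a. They were 0.82 for Mal, 1.15 for Vamp8, 1.37 for Vps33a and 1.81 for Snx31. The other member probe sets above background had 0.49 and 1.11 for Rab27b, 1.27 for Rab11a and 1.26 for Rab8a. For Myo5b, Mal and Vps33a they had 1.12, 3.11 and 1.48.

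**Figure D4:**
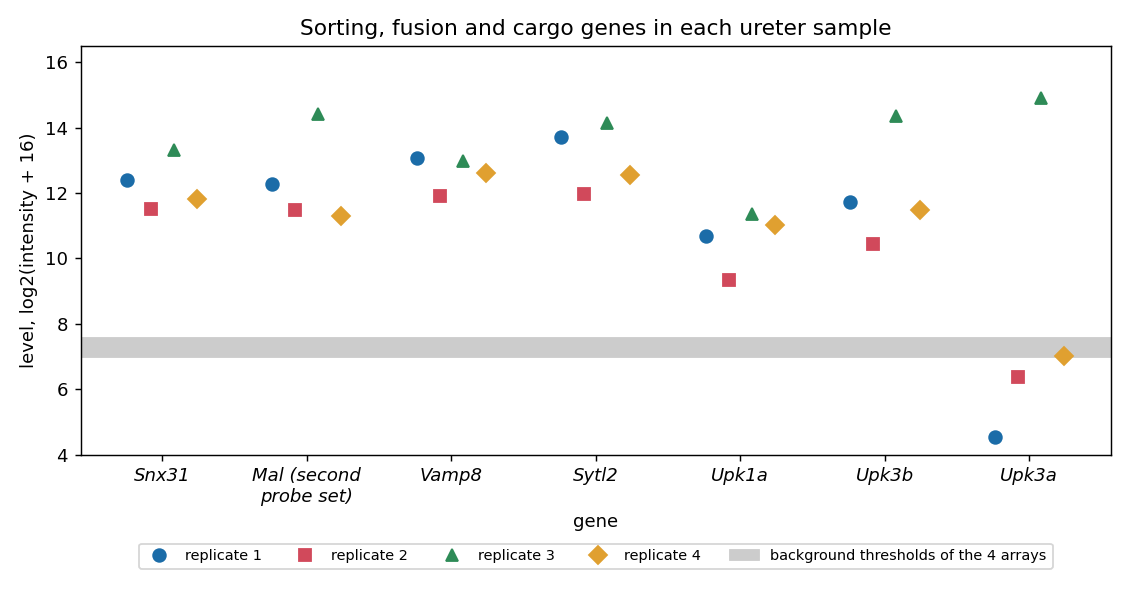
Level, log2(intensity + 16), in each of 4 ureter samples for Snx31, the second Mal probe set, Vamp8, the Rab27 effector Sytl2 and 3 uroplakin genes, with the arrays' background thresholds as a grey band. Points are to be read within a gene: replicate 3 is highest for all but Vamp8, and Upk3a lies above the band in replicate 3 only. The genes drawn are a chosen subset, and the members and the Rab27 effectors did not share a rise in replicate 3. Each of the 5 measured uroplakins was highest there, Upk2 only narrowly, at 10.33 against 10.30 in replicate 4. Of those not drawn, the level probe set of Mal was highest in replicate 1 (15.75 against 15.71 in replicate 3). Sytl1 and Sytl4 were highest in replicate 4, and Upk1b and Upk2 in replicate 3.

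Several members are used by other cells. Markers of these cells are counted below, beside the 57.9% of all named genes above background. A count near that share does not show that a cell type was present. Mal is known from kidney tubules and myelin, and of 6 kidney tubule markers 0 were above background, with 0 to 1 over the threshold in each sample. Of 3 measured Schwann cell and nerve markers 1 was above background, Mbp, a gene of myelin, at 12.45, 12.50, 11.96 and 13.13 in replicates 1 to 4, while Sox10 and S100b were not. Rab27b and Vamp8 are known from mast cells, of whose 7 markers 1, Kit, was above background, and none of Cpa3, Cma1, Mcpt4, Tpsb2, Ms4a2 and Fcer1a. Of 6 exocrine gland markers 3 were above background, and their summed intensity was 2181, 12244, 86954 and 14145 in replicates 1 to 4. Rab27b is also known from platelets, and of 4 platelet markers 3 were above background. What share of each member came from these cells was not tested.

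The genes whose levels followed a member most closely over the 4 samples were found among 10527 other genes above background, by the root mean square difference of centred levels. They were Pgap2 (0.02) and Prpf6 (0.02) for Rab27b, Mtx2 (0.02) and Map3k5 (0.02) for Rab11a, and Tmem231 (0.03) and 8430429K09Rik (0.03) for Rab8a. For Mal they were Tex2 (0.02) and Rock1 (0.02), and for Myo5b Smdt1 (0.0069) and Telo2 (0.02). For Snx31 they were Tmem141 (0.06) and Hsd17b14 (0.08), for Vps33a Tbx1 (0.02) and Cpsf2 (0.03), and for Vamp8 Ddhd1 (0.05) and Tmem198b (0.06). The median over all genes compared was 0.36 to 0.78, and over 4 samples close matches arise among many genes.

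Promoter sequences of RefSeq (build GRCm38.p6) were matched for 5 of the 8 genes, Rab11a, Rab8a, Mal, Vps33a and Vamp8. Those of Vps33a and Rab11a are shown because each holds an element that few promoters hold, beside the genes' levels given above. They cover the 120 bases before the transcription start, 5′ to 3′ on the minus strand, at chr5:123573016-123573135 for Vps33a and chr9:64737757-64737876 for Rab11a. Capitals mark TCACGTGA, the core of the CLEAR element known from genes of lysosomes, and the ETS motif CCGGAAGT.
Vps33a: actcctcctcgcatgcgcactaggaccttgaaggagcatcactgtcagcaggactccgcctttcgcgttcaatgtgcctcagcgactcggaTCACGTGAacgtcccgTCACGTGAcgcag
Rab11a: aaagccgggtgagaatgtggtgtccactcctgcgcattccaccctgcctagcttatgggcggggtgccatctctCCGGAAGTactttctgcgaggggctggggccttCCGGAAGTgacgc

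Over promoters of 300 bases, searched on both strands, TCACGTGA was found in 0.974% of 32851 and CCGGAAGT in 3.89%. Each was found in 1 of the 5 member promoters. The shorter E-box CACGTG, which TCACGTGA contains, was in 7.15% of promoters and in Vps33a only among the members. The motif CCAAT was in Rab11a and Rab8a, and in 37.4% of promoters, and TATAAA was in 0 of the 5 and in 13.6%. The list of HOPS and CORVET tethers leaves out Vps33a and includes the Rab GTPases Rab7 and Rab5a. Of its 11 promoters 2, those of Vps16 and Rab5a, held TCACGTGA. These are matches of letters, and no binding was measured.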

How the data were processed

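For 4 ureter samples of 1 group, the authors deposited linear intensities, 1 for each probe set on each array. Per the labels' protocols, biotin label was added after 2 rounds of RNA amplification. The submitters' processing notes name GCOS, Affymetrix's software, with a version and algorithm not stated there. Trimmed of the top and bottom 2%, the mean intensity was 1500 on all arrays: the deposited values were already scaled, and no further scaling was done. The 64 control probe sets were left out. Probe sets were named through the platform's annotation: 34945 have 1 symbol, 932 several and 9160 none, and those with several were not used. Identifiers of 34741 were found in the RefSeq table of GRCm38.p6, which changed 0 symbols. The 5 trafficking genes without a probe set of their own are not analysed here.

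Levels, log2(intensity + 16), were computed here and tested with limma 3.58.1 in R 4.3.3, against the arrays' thresholds for the mean and against its trended robust prior for spread (3 and 4.24 degrees of freedom). A gene was above background if any probe set was, at an adjusted p under 0.05. Of the 87 chemosensory probe sets 0 were called, which is no check of the method because the thresholds were set from these same probe sets. Adding 16 shrinks differences of dim probe sets, and the number of arrays limits precision. The tests were tried on simulated data, and nothing is concluded from that here. The rule named the members, the first 3 measured genes of each pathway list, any pathway gene passing the spread test and the 2 genes most like each member, and other genes are said to have been singled out. Members and lists were chosen with earlier results of these data known. Alternatives are given in the closing section.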

Additional observations from a re-analysis of the deposited data

Results flagged for a closer look

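Of 48 probe sets checked, 2 had 1 sample far from the others by Dixon's 95% criterion, which chance meets in about 1 of 20 groups. Rab8a probe set 1457624_at was at 4.30 in replicate 1 against 5.45 to 5.61 elsewhere, a gap of 0.88 of its range, and was not above background. Vps16, the HOPS subunit beside Vps33a, was at 11.97 in replicate 4 against 11.15 to 11.28 elsewhere, a gap of 0.84 of its range.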

How the results depend on the processing

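The count of members above background was 8 under each of 13 alternatives: leaving out each replicate, quantile normalization, limma without trend and robust prior, 3 other backgrounds, pseudocounts of 1 or 64, no test at all, and leaving out probe sets with the suffix _x_at or _s_at, whose probes can match other genes' transcripts (those with _a_at stayed). Of 18193 named genes, 10528 were above background with the main settings and 10644 with no test. With background at the median and 3 median absolute deviations above it, 7246 were. The spread test called 0 members under each alternative run. With the main settings it also called 0 of all 18434 probe sets above background. The highest adjusted p of any member was 0.0201, for Vps33a where background was the median and 3 median absolute deviations above it. Of the list counts, 1 moved past 1.5 times: with that background 9 SNARE genes were above background, against 14. The same background also lowered the count for all further trafficking lists, from 115 to 95. For all named genes it fell from 10528 to 7246, so the lower SNARE count was part of a general fall. With the mean over all probe sets of a gene, which mixes bright and dim probes, 6 of 8 levels moved by more than 1 SD. It also put Rab11a in replicate 3 at -0.55 and Mal there at 1.55, against 0.03 and 0.38. Quantile normalization moved the arrays' medians by -0.25 to 0.20, and under it Rab11a in replicate 4 was at 0.06 against -0.14. No paired analysis was possible because there is 1 group.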
